A study of Mus musculus with 2 samples.

Results

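The genes described here are 10 well-known transcriptional targets of p53: Cdkn1a, Ccng1, Btg2, Mdm2, Bax, Ei24, Aen, Phlda3, Zmat3 and Trp53inp1. They were named by symbol, with earlier results of these data known, and all 10 are among the 14366 genes of the deposited tables. p53, encoded by Trp53, is a transcription factor that is kept scarce by Mdm2 and accumulates when DNA is damaged or when ribosome or nucleotide supply fails. Its targets then slow the cell cycle, start apoptosis, or feed back on p53 itself. In blood stem cells p53 is known to help keep the cells out of cycle and to remove damaged ones.

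The 2 libraries compare hematopoietic stem cells (HSC) grown with an iron chelator and with its vehicle. Bone marrow of 8 wild-type C57/B6 mice, 6 to 8 weeks old, was pooled, and cells negative for lineage antigens and CD48 and positive for Sca-1, c-Kit and CD150 were sorted. They were cultured for 48 h in Myelocult M5300 with stem cell factor (SCF, 100 ng/ml), Primocin, an antibiotic, and a further supplement, with either 10 µM deferoxamine (DFO) or sterile water. From each culture 20000 live cells were loaded for droplet-based sequencing of transcript 3′ ends, in which each captured transcript carries a molecular tag and is counted once as a molecule. There is 1 library per group, made from pooled animals and from 1 culture, so no difference has a replicate check, no test was run and no p-value is given. That both libraries came from the same pool and sort is not stated per library, so animals and sort may differ between the groups. The cells had been cultured with cytokines and are no longer fresh HSC.

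The vehicle library holds 8708 cells with a median of 27805.5 molecules, and the DFO library 9852 cells with a median of 27114 molecules. The libraries share 24 cell barcodes. Levels are given as molecules per 1000000 molecules of the same cells (CPM), with exact 95% Poisson intervals. Differences are log2 of the DFO level over the vehicle level after 1 CPM was added to each, and a difference of 0.25 or more in size is called past the fold. Shares of cells carry exact 95% Clopper-Pearson intervals and were taken after each cell was thinned to 10000 molecules, unless said otherwise. Both kinds of interval cover counting error only and leave out variation between cells and between cultures. Levels are compared between cells, never between genes, since transcripts differ in length and capture.

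Cells were clustered without the p53 genes, cell cycle genes and sex-linked genes, which gave 8 clusters, numbered 0 to 7. Cluster 4, called HSC-like, holds 1238 vehicle and 1095 DFO cells and is led by Sult1a1, Pdcd1, Pcp4l1, Ccl4 and Ctss, of which Sult1a1 is an HSC marker of the list used and Pdcd1, Ccl4 and Ctss are immune genes. All 16 HSC markers were detected in it, as they were in cluster 1. Their summed level was 833 CPM in the vehicle and 948 CPM in the DFO library, against 339 and 333 CPM in cluster 1. Other marker lists were also higher in cluster 4 than in cluster 1. Erythroid markers summed to 1334 and 1280 CPM against 521 and 564 CPM. Neutrophil-monocyte markers summed to 339 and 294 CPM against 94.7 and 77.5 CPM. Cluster 1, called megakaryocyte-like, holds 1776 vehicle and 1416 DFO cells, or 20.4% and 14.4% of each library, and is led by Serpinb2, Cavin2, Tesc, Serpine2, Pf4, Timp3, Samd14 and Treml1. All 14 megakaryocyte markers in the tables were detected in it, as they were in HSC-like cells. Their summed level was 5307 CPM in the vehicle and 3165 CPM in the DFO library, against 403 and 340 CPM in HSC-like cells. The other clusters are given by number. Cluster 0 is led by mitotic genes such as Nusap1 and Ube2c, cluster 3 by Slc7a8 and Lpl, and cluster 5 by Ctsg and Ccl9. Cluster 6 is shallow, with a median of 6947 molecules per cell.

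The p53 protein binds DNA as a tetramer at pairs of a 10-base element (a decamer), and the promoters of the genes were searched for the p53 decamer consensus, which is its own reverse complement, so that both strands are covered. RefSeq promoter sequences of build GRCm38.p6, from 250 bases before to 50 after a start site, were on hand for 8 of the 10 genes. A decamer with no mismatch was present for 6 of the 8, namely Cdkn1a, Ccng1, Mdm2, Bax, Ei24 and Aen. By promoter, 7 of the 10 windows of these 8 genes held one, beside 8.36% of all 32851 promoters of the same length. With at most 1 mismatch outside the central C and G, Btg2 joined them, at 7 of 8 genes and 8 of 10 windows, against 50.9% of all promoters. Adjacent or near pairs had at most 1 mismatch in each decamer and 0 to 13 bases between. They were present for Cdkn1a and Ccng1, in 2 of the 10 windows, and in 2.71% of all promoters. The Phlda3 window held no match under any of these searches. A match describes the letters of the window and not binding, and no match says nothing of sites elsewhere in a gene. The stretches below are shown because the choice of genes did not read them. The genes were picked as known p53 targets, so the shares are no independent check. Capitals mark the decamers, and in the Cdkn1a and Ccng1 lines 2 decamers lie side by side with 0 bases between.
Cdkn1a, chr17:29090923-29090952, plus strand: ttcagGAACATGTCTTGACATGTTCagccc
Ccng1, chr11:40755457-40755486, minus strand: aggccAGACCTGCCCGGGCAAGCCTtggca
Mdm2, chr10:117710930-117710949, minus strand: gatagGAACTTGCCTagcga
Bax, chr7:45467085-45467104, minus strand: atcccAGGCAAGCTTtgaac
Ei24, chr9:36797330-36797349, minus strand: ggcccGGGCATGCCCagtgt
Aen, chr7:78895932-78895951, plus strand: aagccGGGCTTGTCCgggca

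The Cdkn1a pair shown begins 51 bases before the upstream of 2 annotated start sites, and its second decamer has 1 mismatch. A further Cdkn1a pair begins 73 bases before the same start site, with 12 bases between its decamers and no mismatch in either. Its second decamer is the first of the pair shown. The window of the other Cdkn1a start site held no match. The first decamer of the Ccng1 pair has 1 mismatch, and the pair begins 195 bases before the start site. The decamers of the other 4 genes have no mismatch.

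Across all cells most of the 10 genes had nearly the same level in both libraries. Phlda3 and Zmat3 were higher in the DFO library and Btg2 and Trp53inp1 lower, each past the fold, while the other 6 lay between -0.0016 and 0.081 on the log2 scale. Of 11119 genes whose mean reached 1 CPM, 1.81% were past the fold toward higher and 3.4% toward lower. The median over the 10 genes was 0.05, beside 0.02 over those 11119 genes. At the stricter mean of 5 CPM or more 7 of the 10 entered, without Phlda3, Zmat3 and Trp53inp1. Of these 7, 0 were past the fold toward higher and 1, Btg2, toward lower, beside 1.4% and 2.58% of 8886 genes. The 2 named classes differed from each other in several of the genes.

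In megakaryocyte-like cells the picture was led by Phlda3 and Zmat3, and Cdkn1a and Ccng1 were also higher in the DFO library. There 5 of the 10 genes were past the fold toward higher and 1 toward lower, beside 6.75% and 3.59% of the 11119 genes, and the median over the 10 was 0.20, beside 0.04. Among the 7 genes at 5 CPM or more the counts were 2 and 1, beside 5.06% and 2.71% of 8886 genes, and the median was 0.14. The minimum of 1 CPM and the summary over all 10 genes were chosen after it was seen that Phlda3 and Zmat3 fall under 5 CPM. In HSC-like cells 0 genes were past the fold toward higher and 2 toward lower, Btg2 and Trp53inp1, beside 5.24% and 3.55% of the 11119 genes. Among the 7 at 5 CPM or more these counts were 0 and 1, beside 3.42% and 2.25%. The median over the 10 genes in HSC-like cells was -0.06, beside 0.02 over all 11119 genes.

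**Figure D1:**
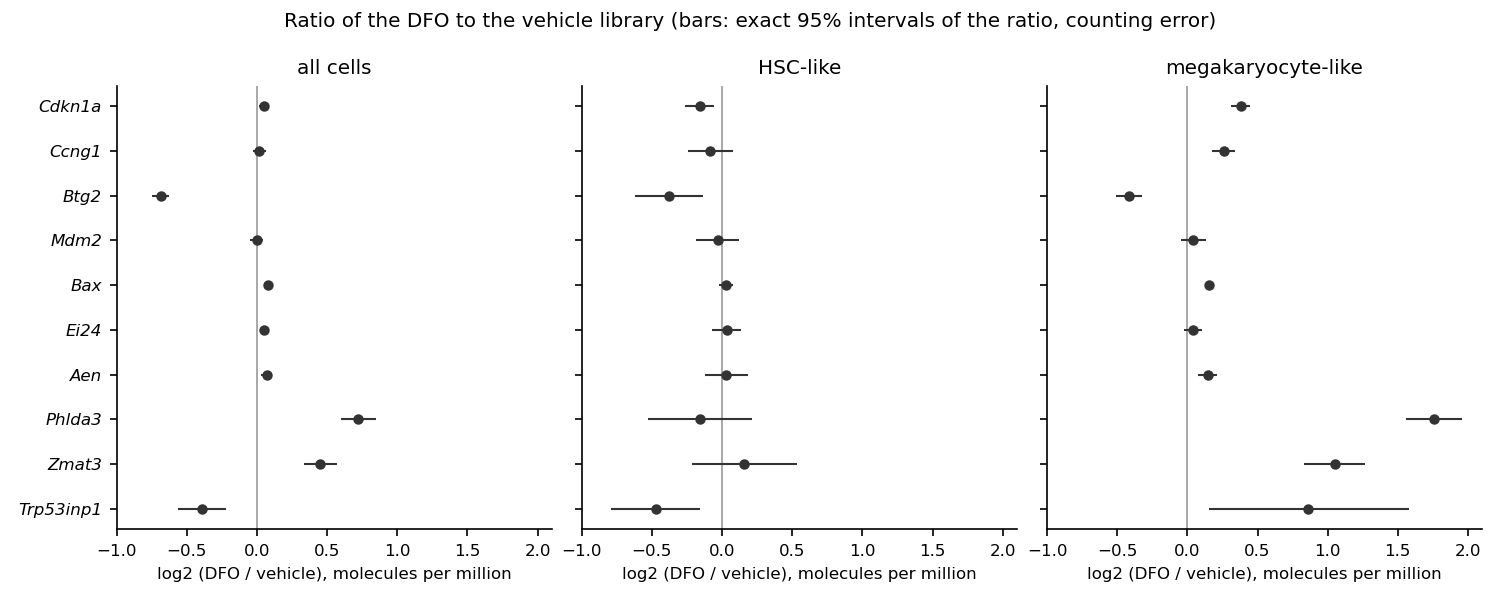
log2 ratio of the DFO to the vehicle library (x axis, CPM, with no value added) for each of the 10 genes (y axis) in all cells, HSC-like cells and megakaryocyte-like cells. Points are the ratio and bars its exact 95% interval from counting error. Phlda3 and Zmat3 stand farthest to the right in megakaryocyte-like cells, and Btg2 lies left of 0 in each panel.

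Phlda3 (chromosome 1, 135766119 to 135769136, plus strand) encodes a small pleckstrin homology domain protein that competes with Akt for membrane lipids and so restrains Akt signaling. Its level in megakaryocyte-like cells was 4.23 CPM (3.76 to 4.74, 297 molecules) in the vehicle library and 14.3 CPM (13.3 to 15.4, 732 molecules) in the DFO library. The 2 intervals are far apart. The ratio was 3.38-fold, and the log2 difference of 1.55 ranked 1 of the 11119 genes at 1 CPM or more in those cells, ahead of Afp at 0.95. The share of megakaryocyte-like cells with a Phlda3 molecule was 4.03% (3.16 to 5.05) and 10.4% (8.82 to 12.1), and without thinning 9.40% and 27.1%. The higher level thus came with more positive cells and not from a few cells of very high content, since the most in 1 thinned cell was 4 molecules in the vehicle and 5 in the DFO library.

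HSC-like cells did not show this. Phlda3 was at 5.50 CPM (4.64 to 6.47, 145 molecules) in the vehicle and 4.93 CPM (4.05 to 5.94, 109 molecules) in the DFO library, intervals that overlap. The share of positive HSC-like cells was 4.35% (3.27 to 5.65) and 4.25% (3.13 to 5.63), at median depths before thinning of 20740 and 19560 molecules. In megakaryocyte-like cells those depths were 35610 and 33710, and the median mitochondrial share was 3.27% in the vehicle and 3.70% in the DFO library. With cells thinned to 10000 molecules the Phlda3 difference was 1.31 in megakaryocyte-like cells, and it was 1.55 without the cells above 10% mitochondrial molecules or below 3000 detected genes. Across the other clusters the Phlda3 difference ran from 0.18 in cluster 5 to 0.93 in the shallow cluster 6, with 0.40 in cluster 0, 0.20 in cluster 2, 0.35 in cluster 3 and 0.82 in cluster 7. Of these clusters, all but cluster 0 had overlapping intervals of the 2 levels. Cluster 4, the HSC-like one, was the only 1 of the 8 in which Phlda3 was lower in the DFO library, at -0.13. That sign depended on the cells taken: it was -0.78 in male HSC-like cells and 0.54 in the narrower HSC-like cluster of the finer clustering.

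Zmat3 (chromosome 3, 32334792 to 32366014, minus strand) encodes a zinc finger protein that binds RNA and acts on splicing and transcript stability. In megakaryocyte-like cells it was at 4.23 CPM (3.76 to 4.74) in the vehicle and 8.76 CPM (7.96 to 9.61) in the DFO library, from 297 and 448 molecules. This is a ratio of 2.07-fold, and the log2 difference of 0.90 ranked 3 of 11119. Positive cells made up 4.03% (3.16 to 5.05) and 7.94% (6.58 to 9.48) of the class, and 13.6% and 22.2% without thinning. In HSC-like cells Zmat3 was at 4.82 CPM (4.02 to 5.73) and 5.38 CPM (4.46 to 6.44), and the intervals overlap. Each of the 8 clusters had more Zmat3 with DFO than with vehicle, by 0.13 in the HSC-like cluster to 0.90 in the megakaryocyte-like cluster. The intervals of the 2 levels overlap in every cluster but the megakaryocyte-like one.

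Trp53inp1 (chromosome 4, 11156431 to 11174379, plus strand), whose product promotes p53 activity and autophagy, had the widest range over clusters in the vehicle library, 18.9-fold from lowest to highest. In the DFO library its range was 7.50-fold, below the 10.1-fold range of Phlda3. It was at 8.35 CPM (7.28 to 9.52) in vehicle and 6.01 CPM (5.03 to 7.13) in DFO HSC-like cells, from 220 and 133 molecules. In megakaryocyte-like cells only 31 and 41 molecules were counted, or 0.44 CPM (0.30 to 0.63) and 0.80 CPM (0.58 to 1.09). The level in megakaryocyte-like cells was thus below that of HSC-like cells in both libraries, by 2.70 on the log2 scale in the vehicle and 1.96 in the DFO library. HSC-like cells were the highest of the 8 clusters in vehicle and DFO alike, and megakaryocyte-like cells the lowest, but HSC-like cells and the shallow cluster 6 did not differ beyond the gap between libraries. Between libraries Trp53inp1 was lower in DFO in HSC-like cells (-0.41) and in all cells (-0.26), where it was at 2.35 CPM in the vehicle and 1.79 CPM in the DFO library. The HSC-like difference was under the fold in male cells (-0.15) and in the narrower HSC-like cluster of the finer clustering (-0.13), and that of all cells was under it in female and male cells taken alone (-0.20 and -0.19).

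Cdkn1a (chromosome 17, 29090976 to 29100727, plus strand) encodes p21, the inhibitor of cyclin-dependent kinases through which p53 halts the cell cycle. Over all cells it was at 48.8 CPM (47.9 to 49.6) in the vehicle and 50.6 CPM (49.8 to 51.4) in the DFO library. In HSC-like cells it was at 68.1 CPM (65.0 to 71.4) and 60.9 CPM (57.7 to 64.3), so the DFO library was lower. In megakaryocyte-like cells it was at 49.9 CPM (48.3 to 51.6) and 64.9 CPM (62.7 to 67.1), so the DFO library was higher. The intervals overlap in neither class, and the log2 differences were -0.16, under the fold, and 0.37. In megakaryocyte-like cells the latter was 0.22, no longer past the fold, as a mean over cells or when values were not scaled per gene before clustering, and it stayed above 0 in each alternative but the cells called G1. The share of positive cells went the same way, from 40.4% (37.7 to 43.3) to 38.0% (35.1 to 41.0) in HSC-like cells, where the intervals overlap, and from 31.4% (29.2 to 33.6) to 41.0% (38.4 to 43.6) in megakaryocyte-like cells. Without thinning these shares were 56.5% and 55.7% in HSC-like cells and 65.9% and 71.2% in megakaryocyte-like cells.

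Cdkn1a molecules were unevenly spread over cells. The variance of the thinned counts was 2.27 times the mean in vehicle and 2.19 times in DFO HSC-like cells, whereas for Ei24 it was 1.06 and 0.98 times. One megakaryocyte-like cell of the vehicle library held 188 Cdkn1a molecules, 5.37% of all those of its class there. With the highest cell of each library left out, the megakaryocyte-like levels were 47.3 CPM and 63.7 CPM, so the order of the libraries did not rest on it. Cells with 5 or more thinned Cdkn1a molecules made up 1.64% (1.01 to 2.52) of vehicle and 0.55% (0.204 to 1.203) of DFO HSC-like cells. In megakaryocyte-like cells that share was 0.85% (0.48 to 1.40) and 1.22% (0.71 to 1.94).

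By cluster, taking the mean of both libraries, Cdkn1a was highest in HSC-like cells, followed by cluster 3, then megakaryocyte-like cells and cluster 2, and lowest in cluster 7, at 29.2 CPM in the vehicle and 24.1 CPM in the DFO library. Of the neighbours in this order, cluster 3 and megakaryocyte-like cells, megakaryocyte-like cells and cluster 2, and clusters 6 and 0 did not differ beyond the gap between libraries. HSC-like cells and cluster 3 were at 60.9 and 60.5 CPM in the DFO library, within counting error, and in that library megakaryocyte-like cells were the highest. Against HSC-like cells, megakaryocyte-like cells were lower by 0.44 on the log2 scale in the vehicle library (value -0.44) and nearly level with them in the DFO library (0.09).

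**Figure D2:**
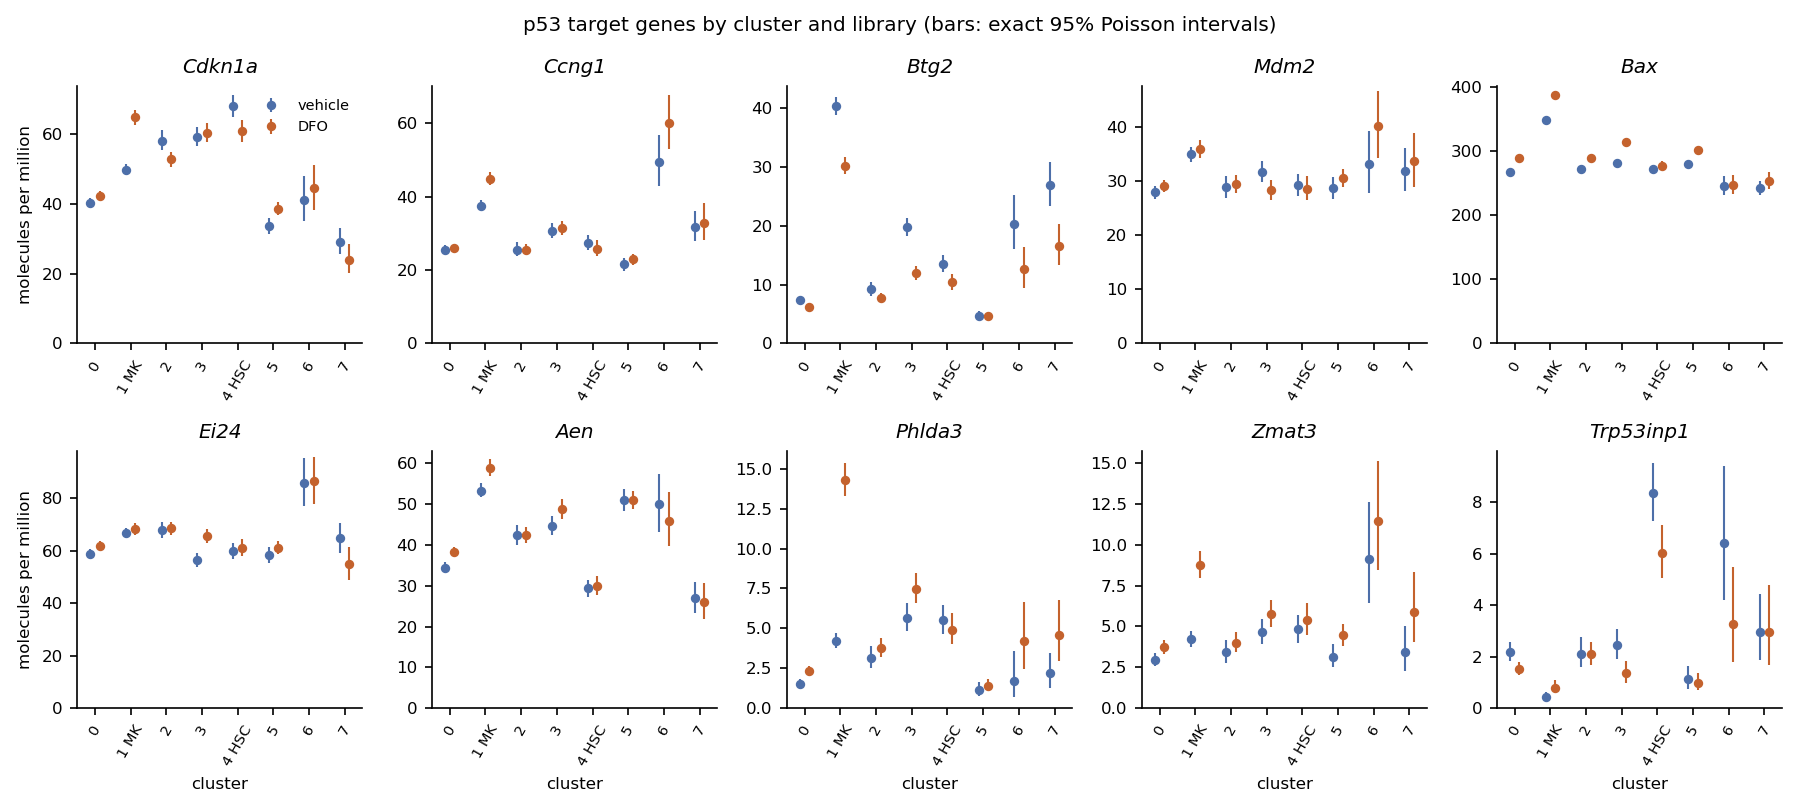
Level (y axis, CPM, each panel with its own scale from 0) of each of the 10 genes in clusters 0 to 7 (x axis; 1 MK is the megakaryocyte-like and 4 HSC the HSC-like cluster) in the vehicle and the DFO library. Bars are exact 95% Poisson intervals. Btg2 and Aen are highest in cluster 1 and Trp53inp1 in cluster 4, and the libraries lie farthest apart for Phlda3 in cluster 1.

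Ccng1 (chromosome 11, 40748552 to 40755311, minus strand) encodes cyclin G1, which binds protein phosphatase 2A and takes part in p53 feedback. In megakaryocyte-like cells it was at 37.5 CPM (36.1 to 38.9) in the vehicle and 44.8 CPM (43.0 to 46.7) in the DFO library, a difference of 0.25. This lay on the threshold, and was under it in female cells (0.18), in cells called G2/M (0.24) and with values not scaled per gene before clustering (0.13). In HSC-like cells it was at 27.4 CPM (25.5 to 29.5) and 25.9 CPM (23.8 to 28.1), with overlapping intervals. Megakaryocyte-like cells held more Ccng1 than HSC-like cells in both libraries, by 0.44 and 0.77.

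Btg2 (chromosome 1, 134075170 to 134079120, minus strand), an antiproliferative gene that recruits the machinery that removes mRNA tails and is also an immediate early gene, was the member most lower in the DFO library over all cells. Its level was 19.0 CPM (18.5 to 19.5) in the vehicle and 11.8 CPM (11.4 to 12.2) in the DFO library, a log2 difference of -0.64. Each of the 8 clusters had less Btg2 with DFO than with vehicle, by values from -0.02 in cluster 5 to -0.68 in cluster 3. The intervals of the 2 levels overlap in clusters 0, 2, 5 and 6. In megakaryocyte-like cells it was at 40.3 CPM (38.9 to 41.9) and 30.2 CPM (28.7 to 31.8), and in HSC-like cells at 13.5 CPM (12.1 to 14.98) and 10.4 CPM (9.10 to 11.8). Neither held in every part of its class. In cells called S the log2 difference was -0.02 in megakaryocyte-like and 0.15 in HSC-like cells, and in thinned HSC-like cells it was -0.18. The difference in all cells exceeds that in either named class, and megakaryocyte-like cells, which hold the most Btg2, were a smaller share of the DFO library. With the clusters weighted to equal shares in both libraries, and means taken over cells in place of summed molecules, the difference over all cells was -0.39. The weights and the kind of mean changed together, so the part of the cluster shares was not tested. Megakaryocyte-like cells exceeded HSC-like cells by 1.51 in the vehicle and 1.45 in the DFO library.

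Btg2 and Trp53inp1 were the 2 of 10 genes that differed by 1 or more on the log2 scale between megakaryocyte-like and HSC-like cells in both libraries, Btg2 toward higher and Trp53inp1 toward lower in megakaryocyte-like cells. Of the 11119 genes at 1 CPM or more, 3.64% were that much higher and 7.73% that much lower. Of the 7 members at 5 CPM or more, 1 was that much higher and 0 that much lower, beside 3.57% and 5.37% of 8886 genes. Aen came closest to that size among the rest, at 0.84 and 0.95. The sign of the lineage difference was not the same in both libraries for Cdkn1a (-0.44 and 0.09), Phlda3 (-0.31 and 1.37) and Zmat3 (-0.15 and 0.61). These were lower in megakaryocyte-like than in HSC-like cells of the vehicle library and higher in those of the DFO library. How many of all genes change sign in this way was not computed. Between the libraries, 2 of the 10 genes, Cdkn1a and Trp53inp1, had opposite signs in the 2 classes with the counting interval of each ratio away from 0, beside 1.24% of the 11119 genes.

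Mdm2 (chromosome 10, 117688875 to 117710758, minus strand), the ubiquitin ligase that marks p53 for degradation and is itself a p53 target, was close to level between the libraries. It was at 30.7 CPM in both over all cells. HSC-like cells held 29.2 CPM (27.2 to 31.4) and 28.6 CPM (26.4 to 30.9), and megakaryocyte-like cells 34.9 CPM (33.6 to 36.3) and 36.0 CPM (34.3 to 37.7). The 95% interval of the log2 ratio in megakaryocyte-like cells was -0.05 to 0.13, which does not reach the value of Cdkn1a in the same cells. That interval covers counting error only. One thinned megakaryocyte-like cell of the vehicle library held 41 Mdm2 molecules, and the variance in that class was 3.65 times the mean. In the DFO library the most was 6 and the variance 1.12 times the mean. The difference without that cell was not computed. In megakaryocyte-like cells the Mdm2 difference was 0.17 in female, 0.09 in male, 0.23 in S-phase and -0.02 in G2/M cells.

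The 3 apoptosis genes differed little. Bax (chromosome 7, 45461697 to 45466898, minus strand), which permeabilizes the outer mitochondrial membrane, was at 349 CPM (345 to 354) in vehicle and 388 CPM (383 to 393) in DFO megakaryocyte-like cells, a difference of 0.15, and at 272 CPM (266 to 278) and 277 CPM (270 to 284) in HSC-like cells. Aen (chromosome 7, 78895854 to 78911209, plus strand), a nuclease that acts during apoptosis, was at 53.3 CPM (51.6 to 55.0) and 58.9 CPM (56.8 to 61.0) in megakaryocyte-like cells, a difference of 0.14, and at 29.4 CPM (27.3 to 31.5) and 29.97 CPM (27.7 to 32.3) in HSC-like cells. Ei24 (chromosome 9, 36779159 to 36797393, minus strand), an endoplasmic reticulum protein, was at 66.6 CPM (64.7 to 68.6) and 68.4 CPM (66.2 to 70.7) in megakaryocyte-like cells and at 59.8 CPM (56.9 to 62.8) and 61.1 CPM (57.9 to 64.5) in HSC-like cells. The intervals of the libraries overlap for Ei24 in both classes, and for Bax and Aen in HSC-like cells alone.

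Because the megakaryocyte-like cells of the DFO library held fewer megakaryocyte marker molecules than those of the vehicle library, 3165 against 5307 CPM, cells of all clusters were also divided into 5 bins by their marker molecules. In the top bin, cells with 15 or more marker molecules of 10000, Phlda3 was at 5.71 CPM in the vehicle and 14.2 CPM in the DFO library. In the lowest bin, cells with 0 or 1, it was at 3.31 CPM and 2.78 CPM. The gap between the libraries thus appeared with marker content, from bin 3 on. Zmat3 went from 4.15 and 3.87 CPM in the lowest bin to 4.55 and 8.46 CPM in the top bin. Cdkn1a went from 41.2 and 43.4 CPM to 56.7 and 66.4 CPM, and Btg2 from 8.24 and 6.76 CPM to 41.1 and 33.0 CPM. In bin 4 these 2 genes did not follow the top bin, with Cdkn1a at 58.5 and 57.2 CPM and Btg2 at 14.6 and 16.7 CPM. Within the megakaryocyte-like class the part of the lower marker content in these differences was not tested.

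**Figure D3:**
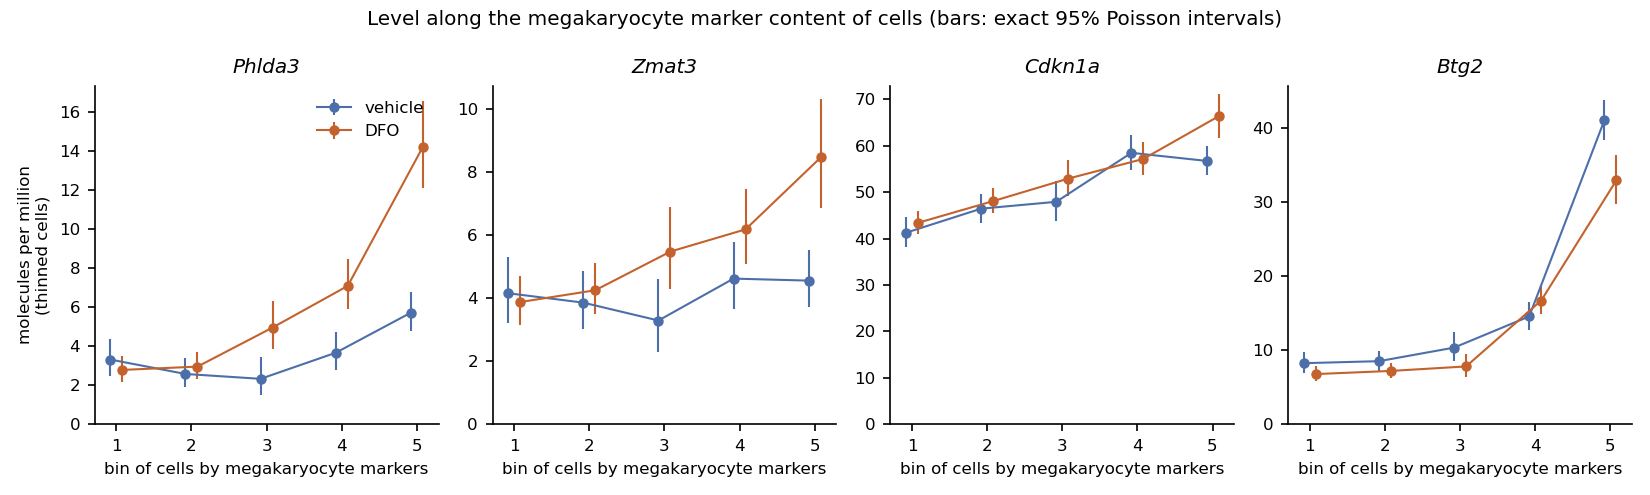
Level (y axis, CPM in thinned cells) of Phlda3, Zmat3, Cdkn1a and Btg2 in 5 bins of cells by megakaryocyte marker molecules (x axis, 1 lowest to 5 highest), in the vehicle and the DFO library. Bars are exact 95% Poisson intervals. In the top bin Phlda3 is at 14.2 in the DFO and 5.71 in the vehicle library, and the libraries lie close together in the lowest 2 bins.

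Cells of female and male mice were told apart by sex-linked transcripts. In megakaryocyte-like cells the Phlda3 difference was 1.66 in female and 1.48 in male cells, that of Zmat3 0.79 and 0.94, that of Cdkn1a 0.42 and 0.43, that of Ccng1 0.18 and 0.29, and that of Btg2 -0.37 and -0.36. In HSC-like cells that of Phlda3 was 0.09 in female and -0.78 in male cells. No difference between the sexes was tested. The animals were pooled before sorting, so these are not replicates. At the finer clustering, megakaryocyte-like cells fell into 2 clusters, and Phlda3 differed by 1.54 in the one with Csrp3 and Cavin2 among its leading genes and 1.85 in the one with Serpinb2 and Timp3. Cdkn1a differed there by 0.33 and 0.52, and Btg2 by -0.09 and -0.52. Over all alternatives the Phlda3 difference in megakaryocyte-like cells ran from 0.57 to 1.81.

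Cell cycle phase moved with several of the genes. Over all cells Cdkn1a was highest in cells called G1, at 92.7 CPM in the vehicle and 75.8 CPM in the DFO library, against 41.2 and 44.9 CPM in those called G2/M. Phlda3 was likewise highest in G1, at 12 and 8.22 CPM, against 2.44 and 4.83 CPM in G2/M. Trp53inp1 was at 10.98 and 8.74 CPM in G1 and 1.80 and 1.40 CPM in G2/M. These genes were thus higher in cells with low S and G2/M scores, while Ei24 was nearly even, at 59.0 and 60.2 CPM in G1 and 63.5 and 64.9 CPM in G2/M. Cells called G1 made up 37.9% of vehicle HSC-like cells and 1.58% of vehicle megakaryocyte-like cells, so phase and class overlap. A call of G1 was not read as an absence of cycling beyond this score.

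Within megakaryocyte-like cells the DFO library was higher in both large phases for Phlda3 and Cdkn1a. In G2/M, with 1217 vehicle and 970 DFO cells, Phlda3 was at 3.35 and 12.8 CPM, and Cdkn1a at 44.3 and 59.6 CPM. In S phase, with 531 and 433 cells, Phlda3 was at 5.91 and 17.9 CPM, and Cdkn1a at 58.5 and 77.3 CPM. The few megakaryocyte-like cells called G1, 28 and 13, went the other way for Cdkn1a, at 272 and 193 CPM, and for Zmat3, at 21.2 and 8.77 CPM. The intervals of the 2 levels overlap for both genes. Phlda3 was higher in the DFO library there, at 29.3 and 43.9 CPM, also with overlapping intervals. Over all cells called G1, 806 and 596, the DFO library was lower for Phlda3 (-0.50), Zmat3 (-0.54), Cdkn1a (-0.29) and Btg2 (-1.05). The other members ran from -0.30 for Trp53inp1 to 0.03 for Ei24. The share of all genes lower in these cells was not computed, so these signs are not read as particular to the 10 genes. Cells called G1 also mix the classes, and the part of that mix was not tested. The direction over all cells did not hold in the G1 cells for Phlda3 and Zmat3. In HSC-like cells called G1, 469 and 390, Cdkn1a was at 83.3 and 74.2 CPM and Btg2 at 22.5 and 12.4 CPM. In those called S, 699 and 659 and the larger part of the class, Cdkn1a was at 59.6 and 54.6 CPM, and Btg2 at 8.15 and 9.16 CPM, higher in the DFO library. Btg2 in megakaryocyte-like cells called S was nearly level, at 38.8 and 38.1 CPM. In those called G2/M it was lower in the DFO library, at 40.5 and 27.2 CPM.

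**Figure D4:**
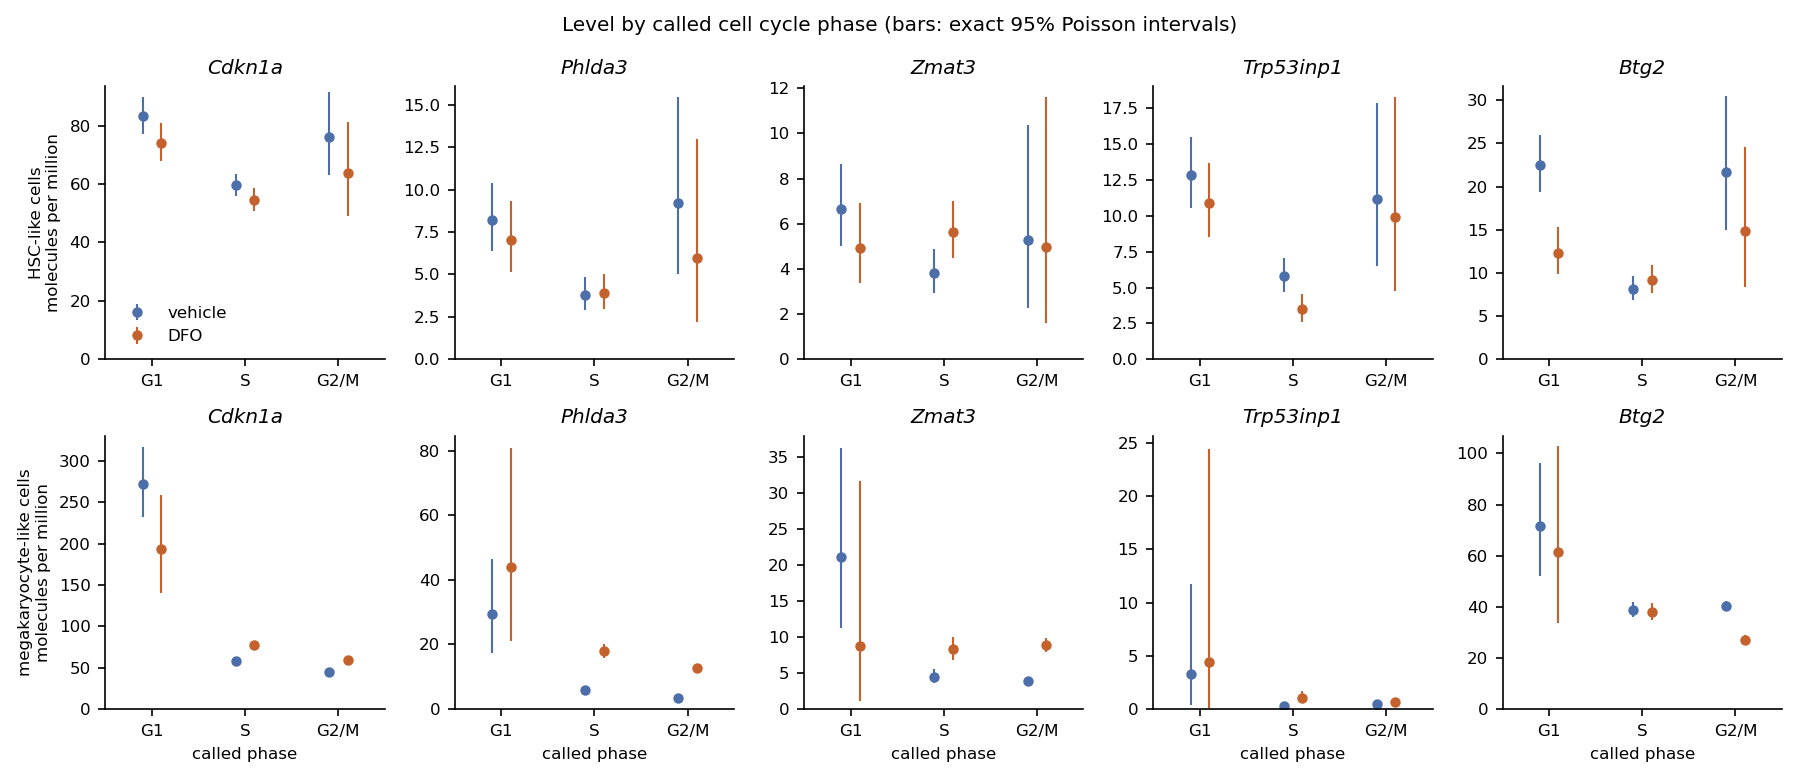
Level (y axis, CPM, each panel with its own scale from 0) of 5 genes by called phase (x axis) in HSC-like cells (upper row) and megakaryocyte-like cells (lower row) of the vehicle and the DFO library. Bars are exact 95% Poisson intervals. In megakaryocyte-like cells Phlda3 and Cdkn1a are higher in the DFO library in S and G2/M, while the G1 points rest on 28 and 13 cells.

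Across single cells the genes were at most weakly correlated, on thinned counts, with the cells of 1 library sharing that library's preparation. The median Pearson r over the 45 pairs was 0.04 in 8357 vehicle and 0.03 in 9419 DFO cells. For Cdkn1a with the other members the median r was 0.06 and 0.04, beside -0.0005 and 0.0001 over 8879 genes. Members with r above 0.1 to Cdkn1a numbered 2 and 1, beside 0.0676% and 0.0225% of those genes. In HSC-like cells they numbered 3 and 2, beside 0.473% and 0.248%. In megakaryocyte-like cells they numbered 2 and 4, beside 0.169% and 0.124%. The highest pair values lay with Phlda3: with Zmat3 r was 0.20 and 0.07, and with Cdkn1a 0.19 and 0.12. Within megakaryocyte-like cells Phlda3 and Cdkn1a had r of 0.24 in the vehicle and 0.16 in the DFO library, and within HSC-like cells 0.22 and 0.08. In counts this sparse such values are a description and no finding.

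Among the 5484 genes whose mean reached 20 CPM, those most like Cdkn1a across all cells, by the lower r of both libraries, were Ldha, Jund, Aldoa, Pgam1, Cish, Eno1, Bnip3 and Egr1. Ldha had r of 0.11 in the vehicle and 0.10 in the DFO library, and Egr1 0.08 and 0.12. Least like it were Ube2c (-0.13 and -0.09), Birc5, Tubb5 and mt-Nd1. Measured the same way, Phlda3 would have ranked 1 in this order, Ccng1 15, Zmat3 17, Bax 25, Trp53inp1 59, Btg2 81 and Mdm2 89. Aen would have ranked 464 and Ei24 1103. Ranks differed within the classes. In megakaryocyte-like cells Phlda3 ranked 2, Ccng1 182 and Bax 787, and in HSC-like cells 20, 9 and 31, with Ei24 at 4890. Phlda3, Zmat3, Trp53inp1 and Btg2 lie below the 20 CPM minimum, so their ranks are given beside the list.

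**Figure D5:**
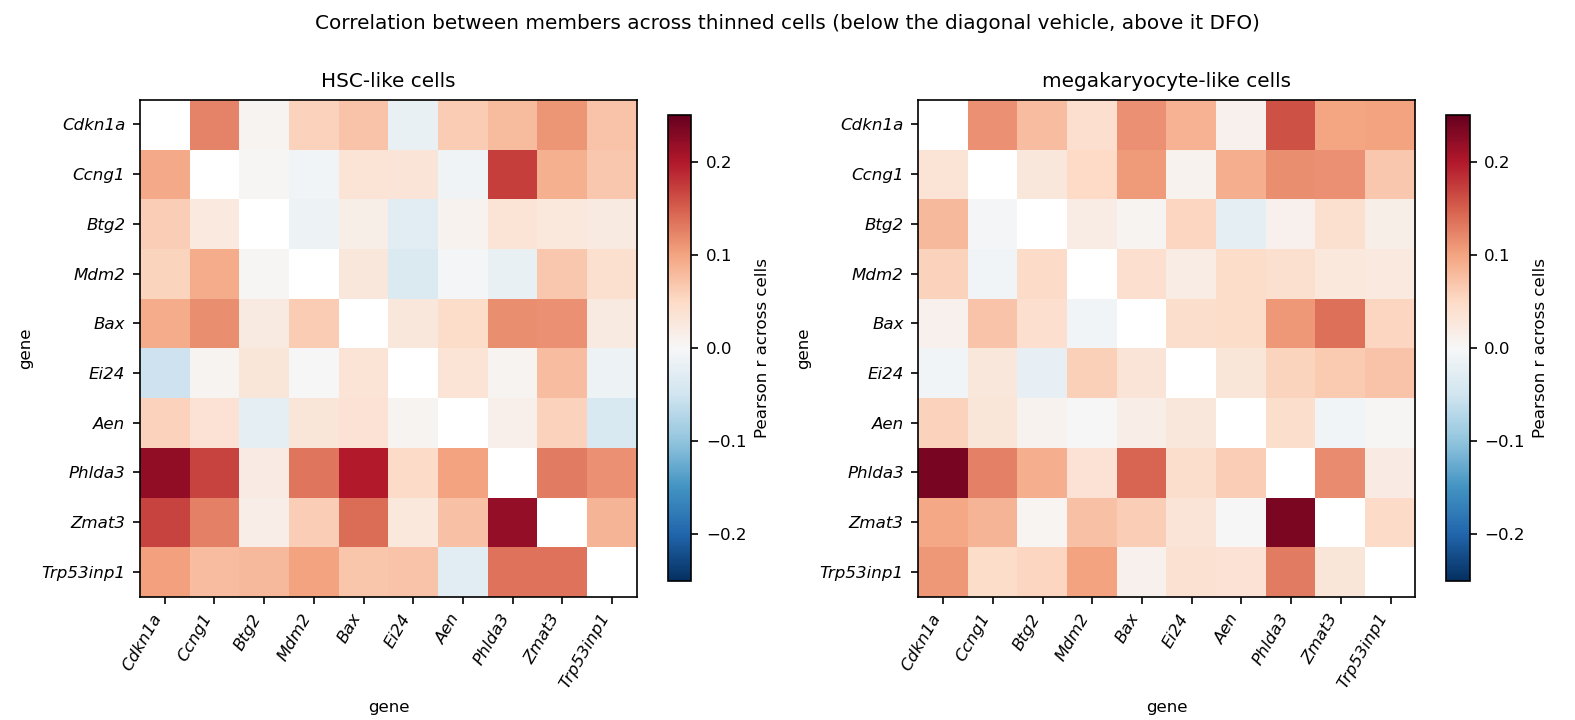
Pearson r across thinned cells (color scale, -0.25 to 0.25) for each pair of the 10 genes (both axes) in HSC-like and megakaryocyte-like cells. The vehicle library is below the diagonal and the DFO library above it. The darkest cells are Phlda3 with Cdkn1a and with Zmat3 in the vehicle library.

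The rest of the p53 pathway gave a background for these values. Trp53 itself was at 288 CPM in the vehicle and 309.5 CPM in the DFO library over all cells (0.10), and at 269.8 and 279 CPM in megakaryocyte-like cells (0.05). Mdm4, the Mdm2 relative that holds p53 inactive, was at 43.4 and 42.3 CPM over all cells (-0.03). Of 36 further p53 targets listed, 34 were in the tables and 18 had a mean of 5 CPM or more. Over all cells 7 of the 18 were above 0 and 11 below, beside 57.9% of 8886 genes above 0, with a median of -0.03. Past the fold were 0 in either direction, beside 1.4% of those genes toward higher and 2.58% toward lower. The 2 highest were Pidd1, which takes part in caspase activation, at 5.50 and 6.60 CPM (0.23), and Ddb2, a DNA damage sensor, at 7.74 and 9.20 CPM (0.22). The 2 lowest were Bbc3, which encodes the apoptosis inducer PUMA, at 14.7 and 12.8 CPM (-0.18), and Rap2b, at 33.4 and 29.5 CPM (-0.17).

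In megakaryocyte-like cells 3 of the 18 further targets were past the fold toward higher and 0 toward lower, with a median of -0.02, beside 5.06% and 2.71% of 8886 genes. These 3 were Psrc1 (0.48), Ddb2 (0.34) and Pidd1 (0.27), named after their values were seen. Psrc1, a microtubule regulator, was at 20.1 and 28.5 CPM in megakaryocyte-like cells and at 13.01 and 10.4 CPM in HSC-like cells (-0.29). At the 1 CPM minimum, which Phlda3 and Zmat3 need to enter, 29 of the further targets entered, chosen so after the data were seen. There 7 of the 29 were past the fold toward higher and 0 toward lower in megakaryocyte-like cells, beside 6.75% and 3.59% of 11119 genes, and the median was 0.11, beside 0.04. The 4 added were Perp (0.55), Dglucy (0.47), Sesn2 (0.35) and Pmaip1 (0.30), of which Perp and Dglucy were under 2 CPM in megakaryocyte-like cells of both libraries. The list's median in these cells thus depended on the minimum, from -0.02 to 0.11. In HSC-like cells 3 of the 29 were past the fold toward higher and 2 toward lower, beside 5.24% and 3.55% of 11119 genes. Their median there was 0.0015, beside 0.02.

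Of 17 p53 regulators and partners listed, 16 entered, with a median of 0.02 over all cells, beside 0.02 over 8886 genes. Past the fold were 0 of them, beside 1.4% of those genes toward higher and 2.58% toward lower. The 2 highest were Chek1 (0.17), a checkpoint kinase, and Trp53bp1 (0.13), a DNA break adaptor. The 2 lowest were Rpl11 (-0.21), a ribosomal protein that binds Mdm2, and Hipk2 (-0.20), a kinase of p53. Of 6 other inhibitors of cyclin-dependent kinases, 3 entered. Cdkn2d was at 69.7 and 57.8 CPM (-0.27), Cdkn1b, which encodes p27, at 32.4 and 30.4 CPM (-0.09), and Cdkn2c at 17.9 and 18.7 CPM (0.06).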

How the data were processed

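Per the submitters' processing notes, FastQC 0.11.9, Trim Galore 0.6.5, Cell Ranger 3.0.2 and build mm10 were used. Which annotation and which cell filter were used is not given here. The authors deposited a gene by cell table of natural log values for each library. A value is ln(1 + 27408 m / t), with m the gene's and t the cell's molecules, and all nonzero values came back as whole molecules within 0.05. No count model was run, since each group has 1 library.

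Molecules were summed per library and class (260938938 vehicle and 284326017 DFO molecules in all) and scaled to CPM. Clustering used scanpy 1.11.5 and leidenalg 0.10.2 on 2000 variable genes scaled per gene, 30 principal components, 15 neighbours, shared-neighbour edge weights, resolution 0.5 and seed 0. Several clustering settings (scaling, sex-linked genes, choice of variable genes, edge weights) were tried, and 1 was chosen on cluster names and leading genes, before the values of the 10 genes were examined. Naming a cluster required 3 or more detected markers of the type. Scrublet called 3 vehicle and 2 DFO cells, so its threshold has not worked; cells in the top 8% of its score or with transcripts of both sexes (820 and 925 cells) were instead left out as an alternative. Thinning left out 351 and 433 cells. Phase was scored with scanpy.

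The genes named are the 10 members, the 2 highest and 2 lowest of the wider p53 lists at 5 CPM or more, Trp53, Mdm4 and Cdkn1b, the genes most and least like Cdkn1a, and the leading genes of clusters; others are said to be chosen after their values were seen. Members and lists were chosen with earlier results of these data known. The 1 CPM minimum, the paired decamer search, marker bins, the spread over cells, S and G2/M cells alone, unscaled clustering and removal of the highest Cdkn1a cells were added after seeing the data. Coordinates are GENCODE M21 and RefSeq GRCm38.p6, the assembly of mm10. Computations were tested on simulated data. One culture supplement is not reported here.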

Additional observations from a re-analysis of the deposited data

Results flagged for a closer look

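The difference between the libraries had opposite signs in the 2 named classes, with the counting interval of each ratio away from 0, for 2 of the 10 genes and 1.24% of 11119 genes at 1 CPM or more. Cdkn1a differed by -0.159 in HSC-like cells, which is under the fold, and by 0.372 in megakaryocyte-like cells. The variance of its thinned counts in vehicle and DFO HSC-like cells was 2.27 and 2.19 times the mean, which counting intervals leave out. The negative sign in HSC-like cells held in each alternative. The intervals of the 2 levels overlap in HSC-like cells called G1, S or G2/M and in female ones. Trp53inp1 differed by -0.414 in HSC-like cells and by 0.321 in megakaryocyte-like cells, the latter from 31 and 41 molecules, with overlapping intervals of the 2 levels, and at -0.0585 and -0.124 under 2 other clusterings. With 1 library per group the difference between the classes was not tested. Phlda3, at -0.13 and 1.55, was not picked out by this rule, since its HSC-like interval includes 0.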

How the results depend on the processing

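No paired analysis was possible because each group has 1 library. The summary results were recomputed 83 times in all under other settings: 76 values stayed within a range set around the value reported, and 7 moved. For the members between libraries the range was the median of the 10 genes' counting bounds. For the lineage difference and the correlation it was the gap between libraries. For the wider lists it was the standard error over the genes of the list. The median over the 10 genes in all cells was -0.276 in cells called G1, and in HSC-like cells -0.256 in cells called G2/M. In megakaryocyte-like cells it was 0.135 with 10 CPM added, 0.0443 in cells called G1, 0.123 at resolution 0.25 and 0.132 when values were not scaled per gene before clustering. The median correlation was 0.15 on all molecules of the cell, without thinning. Of 580 single-gene values, 474 stayed within a range as wide as the gene's own counting interval, or within its gap between libraries. In all 46 had a sign opposite to the value reported, 8 of them where that value was 0.25 or more in size. In cells called G1 over all cells Phlda3 was at -0.495 and Zmat3 at -0.536, and in megakaryocyte-like G1 cells, 28 and 13 in number, Cdkn1a was at -0.492, Ccng1 at -0.0103 and Zmat3 at -1.18. Trp53inp1 in megakaryocyte-like cells was at -0.0585 at resolution 0.25 and -0.124 with unscaled values, and Btg2 in HSC-like cells was at 0.152 in S phase. The cause of these shifts was not tested. The share of vehicle cells named HSC-like was 14.2% here, 25.4% with unscaled values, 28.3% at resolution 0.25 and 3.64% at resolution 1.0. Phlda3, Zmat3 and Trp53inp1 rest on the fewest molecules, so depth limits them most, and no setting stands in for a second culture.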
